A study of Mus musculus with 15 samples.

Results

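Genes whose products switch on the Arp2/3 complex, 10 in all, were followed through 15 RNA-seq libraries of mouse oligodendrocyte-lineage cells with and without the transcription factor SRF. The genes were Wasf1, Wasf2, Wasf3, Wasl, Wipf1, Nckap1, Cyfip1, Cyfip2, Abi1 and Abi2. They were chosen by symbol as the WAVE and WASP activators, and all 10 were found among the 45706 genes of every file. All cells came from brains of SRF-floxed/floxed mice and were grown as primary cultures of oligodendrocyte precursor cells (OPCs), the dividing cells that give rise to the myelin-forming oligodendrocytes (OLs). The 4 control OPC libraries received an adeno-associated virus with AAV-deleted CRE, and the 3 SRF-KO OPC libraries received AAV-CRE, both driven by a CMV promoter with eGFP. Virus was added on day 3 of culture and the cells were frozen after 48 hours. The 4 control OL libraries received the lentivirus-GFP control on day 6, the 4 SRF-KO OL libraries received a lentivirus carrying Cre with IRES-GFP, and both were frozen on day 3 of differentiation. The controls thus carry the floxed alleles too, and cells with Cre but no floxed allele were not among the groups. The labels used here name no age, sex or number of animals, and do not say whether replicates were separate cultures. The p-values therefore measure the spread between these libraries, which may be technical.

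The Arp2/3 complex starts a new actin filament as a branch on the side of an existing one, and it does so only when an activator touches it. WAVE proteins (WAVE1, WAVE2 and WAVE3, from Wasf1, Wasf2 and Wasf3) are such activators. Each sits in a complex with one CYFIP protein, NCKAP1, one ABI protein and BRK1, which holds it inactive until the GTPase Rac binds CYFIP. N-WASP (from Wasl) answers to the GTPase Cdc42 instead, and WIP (from Wipf1) binds N-WASP and keeps it stable. In oligodendrocytes, branched actin pushes out the processes that find and ensheathe axons.

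SRF acts at CArG boxes, a short A- and T-rich element between paired C and paired G bases. RefSeq promoter windows on build GRCm38.p6, each from 250 bases before to 50 bases after a transcript start, covered 7 of the 10 genes in 10 windows (Nckap1, Cyfip1 and Abi2 had none in the table). A CArG box matched in 0 of these 10 windows, in the 1 window of Srf (2 boxes) and in 1.63% of all 32851 windows. The GC box (GGGCGG on either strand) matched in 5 of the 10 and in 35.7% of all windows. A match or its lack describes these letters only and says nothing on binding. To set the WAVE genes beside a promoter that has the element, the part of each window upstream of the gene's start in GENCODE is shown for Srf (chr17:46556176-46556412, minus strand), Wasf1 (chr10:40883284-40883474), Wasf2 (chr4:133130383-133130504) and Wasf3 (chr5:146384756-146384984), the last 3 on the plus strand. Capitals mark CArG boxes and GC boxes, the latter as GGGCGG or, read from the other strand, CCGCCC.
Srf: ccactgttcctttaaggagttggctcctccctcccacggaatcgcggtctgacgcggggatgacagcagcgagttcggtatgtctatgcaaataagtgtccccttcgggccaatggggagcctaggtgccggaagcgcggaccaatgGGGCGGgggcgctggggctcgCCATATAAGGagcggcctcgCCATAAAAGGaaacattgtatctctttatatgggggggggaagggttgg
Wasf1: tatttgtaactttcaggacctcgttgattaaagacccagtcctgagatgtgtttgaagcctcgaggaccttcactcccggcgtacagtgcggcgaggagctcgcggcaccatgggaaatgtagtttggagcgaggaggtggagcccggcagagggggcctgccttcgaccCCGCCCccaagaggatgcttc
Wasf2: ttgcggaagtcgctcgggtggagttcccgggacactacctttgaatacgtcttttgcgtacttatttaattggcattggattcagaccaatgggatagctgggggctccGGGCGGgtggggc
Wasf3: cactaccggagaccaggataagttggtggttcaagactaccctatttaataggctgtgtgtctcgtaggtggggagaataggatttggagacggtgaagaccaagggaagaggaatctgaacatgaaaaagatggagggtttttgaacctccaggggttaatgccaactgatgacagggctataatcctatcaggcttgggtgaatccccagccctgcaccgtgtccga
In Srf 1 GC box is followed by both CArG boxes. The windows of Wasf1 and Wasf2 hold 1 and 2 GC boxes and no CArG box (the second GC box of Wasf2 lies past the stretch shown), and that of Wasf3 holds neither element.

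Libraries held 4303739 to 16026511 expected counts (the authors' estimate of reads per gene). Levels are given as normalised CPM, counts relative to the library's total after TMM scaling within a stage. Srf had 5.57 to 9.67 normalised CPM in control OPCs against 0.196 to 0.221 in SRF-KO OPCs. In OLs it had 7.13 to 9.34 with the control virus against 2.06 to 4.34 with Cre. Knockout libraries lay below all controls of their stage, with edgeR quasi-likelihood adjusted p of 0.000569 in OPCs and 0.0224 in OLs. The OL call was lost, at an edgeR adjusted p of 0.0724 to 0.104, when any 1 of 6 of the 8 OL libraries was left out, and SRF-KO OL libraries kept 36.7% of the control Srf level. All 6 OPC markers were detected in every group, and all 8 oligodendrocyte markers in both OL groups. The oligodendrocyte markers summed to 428 to 473 CPM in control OPCs against 481 to 520 in the knockouts, with Mog at 0 in both. In OLs they summed to 21539 to 31670 CPM with the control virus against 13924 to 20557 with Cre, so the groups did not overlap in either stage. The OL cultures also carried astrocyte RNA: Gfap alone had 13351 to 23470 CPM with the control virus against 4935 to 9598 with Cre. In OPC libraries Gfap lay the other way, at 39.9 to 75.6 CPM in controls against 79.1 to 87.1 in knockouts. All 7 astrocyte markers were detected in every group. Another of them, Slc1a3, overlapped between the OL groups, at 1148 to 1350 CPM with the control virus against 595 to 1519 with Cre. Its OL medians were 1188 and 1424 CPM, so it did not follow Gfap there. The 9 neuron markers summed to 6.35 to 11.9 CPM in control OLs against 12.6 to 19.9 in SRF-KO OLs, without overlap. In OPCs these neuron sums overlapped, at 29.9 to 32.8 CPM in controls against 27.6 to 33.7 in knockouts. In these bulk samples, fewer cells of a type and less RNA per cell cannot be told apart. SRF-KO OPC replicate 2 and SRF-KO OL replicate 4 stood apart from the other libraries of their stage on the first principal component, at 47.6 and 80.5 against at most 6.01 and 0.45. Log2 fold changes of the 10 genes, and their differences between stages, that moved by over 1.5 times without either library are given with and without it.

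In SRF-KO OPCs Wasf1 was below control in every knockout library, but none of the 10 genes passed the adjusted threshold. In edgeR, 0 of 10 had an adjusted p under 0.05 (0.0678% of 13271 genes tested did), 1 of 10, Wasf1, passed an unadjusted 0.05 (11.9% of genes did), and DESeq2 also called 0 of 10 (0.957% of genes). Of the 10 estimates, 9 were negative, with a median log2 fold change (knockout over control) of -0.14. Over all genes tested 50.2% were negative and the median was -0.001. Without SRF-KO OPC replicate 2 the count of negative estimates was 7 of 10 and the median -0.09. Each of the 10 genes passed the filter on low counts in both stages.

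Wasf1 (ENSMUSG00000019831, protein-coding, GRCm38 chromosome 10, 40883475 to 40938570, plus strand) encodes WAVE1, the member best known from neurons and from oligodendrocyte process outgrowth. It had 77.9, 75.2, 74.3 and 75.8 normalised CPM in control OPC replicates 1 to 4, against 63.2, 48.5 and 64.4 in the 3 SRF-KO OPC replicates in order. The controls lay close together, and all 3 knockouts lay below them. Such complete separation on the low side occurred in 6.25% of all genes tested. The mean went from 75.8 ± 1.54 (SD, n = 4) to 58.7 ± 8.85 (SD, n = 3), a log2 fold change of -0.37 (SE 0.11, 95% interval -0.61 to -0.13, edgeR adjusted p = 0.263). Without SRF-KO OPC replicate 2, the lowest library, the log2 fold change was -0.25, and the other 2 knockout libraries still lay below every control. Separation was also complete when counts were scaled by library totals (74.1 to 75.9 CPM against 49.0 to 65.1). Cell type markers separated the same libraries. The 6 OPC markers summed to 6248 to 6627 CPM in controls against 4747 to 6217 in knockouts, lowest in replicate 2 as for Wasf1. The 7 astrocyte markers summed to 1106 to 1254 CPM in controls against 1411 to 1525 in knockouts. The part of these markers in the Wasf1 level was not tested.

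The other WAVE genes differed less from control, or varied more. Wasf2 (chromosome 4, 133130505 to 133199756), which encodes the widely expressed WAVE2, had 31.3, 29.8, 25.9 and 25.4 CPM in control OPCs and 25.6, 19.97 and 27.8 in SRF-KO OPCs. Wasf3 (chromosome 5, 146384985 to 146473615), which encodes WAVE3, had 16.0, 20.3, 13.6 and 13.1 CPM in control OPCs and 14.8, 7.46 and 15.8 in SRF-KO OPCs. In both genes replicate 2 was the lowest knockout, and the other knockouts overlapped the controls. The log2 fold changes were -0.21 for Wasf2 (95% interval -0.53 to 0.12) and -0.34 for Wasf3 (-0.91 to 0.23), with edgeR adjusted p of 0.605 and 0.636. Without replicate 2 the Wasf3 estimate was -0.05 and that of Wasf2 -0.07.

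The remaining subunits of the WAVE complex overlapped between control and SRF-KO OPCs. Abi2 (chromosome 1, 60409619 to 60481158), which encodes an adaptor that ties WAVE into its complex, came nearest to separating. It had 271, 277, 322 and 313 CPM in controls and 256, 285 and 248 in knockouts, so 2 of 3 knockouts lay below all controls. The Abi2 log2 fold change was -0.17 (95% interval -0.36 to 0.03, edgeR adjusted p = 0.482). Its paralog Abi1 (chromosome 2, 22940073 to 23040241) had 70.9 to 86.1 CPM in controls and 78.4 to 88.7 in knockouts, and was the 1 gene with a positive estimate, at 0.04 (95% interval -0.17 to 0.26), and 0.07 without replicate 2. Nckap1 (chromosome 2, 80500512 to 80581380), the scaffold that pairs with CYFIP, spanned 289 to 393 CPM in controls. It had 332, 247 and 378 CPM in the knockouts, a log2 fold change of -0.11 (95% interval -0.42 to 0.21) that became 0.05 without replicate 2. Cyfip1 (chromosome 7, 55841745 to 55932602) and Cyfip2 (chromosome 11, 46193850 to 46312859) encode the Rac-binding subunit. Cyfip1 had 177 to 205 CPM in controls and 169 to 203 in knockouts, and its log2 fold change was -0.05 (95% interval -0.24 to 0.15), and -0.11 without replicate 2. Cyfip2 had 132 to 177 CPM in controls and 131 to 162 in knockouts, and its log2 fold change was -0.05 (-0.29 to 0.20), turning to 0.03 without replicate 2. Written as folds, the intervals of the CYFIP genes and Abi1 all lay between 0.816 and 1.20.

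The WASP branch showed no call either. Wasl (chromosome 6, 24613805 to 24665009), which encodes N-WASP, had 74.0, 71.3, 61.0 and 69.2 CPM in control OPCs and 62.6, 64.8 and 56.7 in SRF-KO OPCs, a log2 fold change of -0.17 (95% interval -0.39 to 0.05, edgeR adjusted p = 0.529). One knockout lay below all controls, and the other 2 lay above the lowest control. Wipf1 (chromosome 2, 73429610 to 73529734), which encodes WIP, was low and scattered at 11.1 to 15.5 CPM in controls and 12.2, 16.6 and 8.81 in knockouts. Its log2 fold change was -0.03 (95% interval -0.51 to 0.46), so folds from 0.701 to 1.37 lie inside the interval. Without replicate 2, the highest knockout, it was -0.30.

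**Figure D1:**
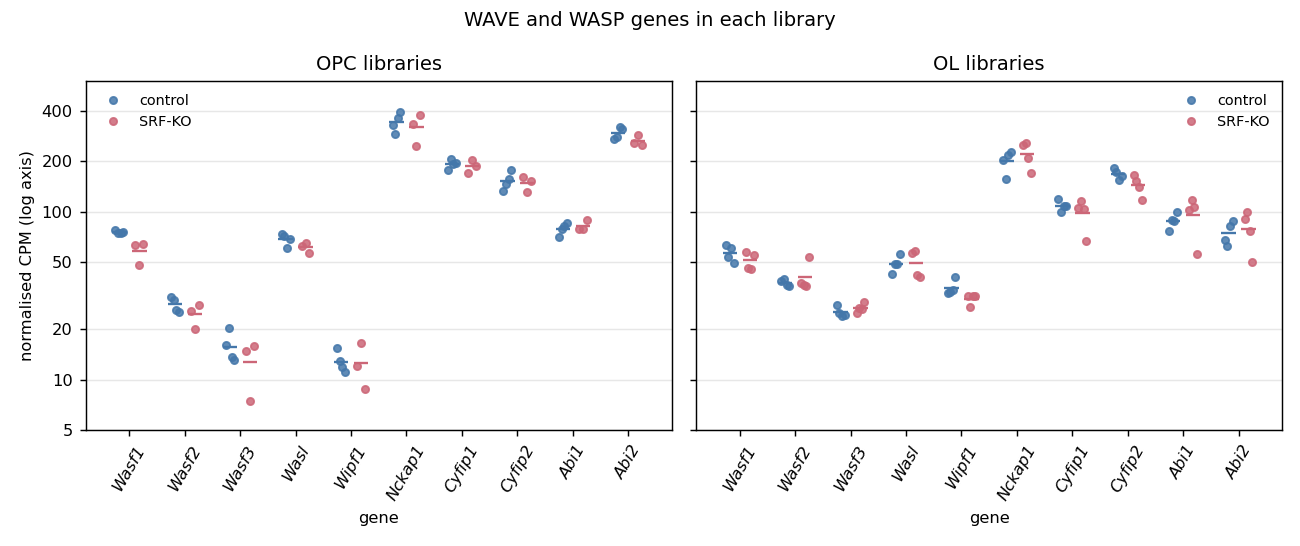
Normalised CPM (log axis) of the 10 genes in each of the 7 OPC libraries (left) and 8 OL libraries (right), with control libraries in blue and SRF-KO libraries in red. Points are libraries and short lines are group means. Wasf1 in OPCs is separated, with controls at 74.3 to 77.9 and knockouts at 48.5 to 64.4, and most other genes overlap.

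In SRF-KO OLs the 10 genes lay on both sides of control and none passed the adjusted threshold. In edgeR, 0 of 10 were called (0.296% of 15193 genes tested were), 0 of 10 passed an unadjusted 0.05 (11.6% of genes did), and DESeq2 called 0 of 10 (1.97% of genes). Of the estimates 6 were positive and 4 negative, with a median log2 fold change of 0.05 against 0.02 over all genes. Scaling by library totals moved the median of all genes to 0.24 and that of the 10 genes to 0.25, and under it the signs of Wasf1 (0.09), Cyfip1 (0.08) and Cyfip2 (0.003) turned positive. Gfap, named above, was lower in all SRF-KO OL libraries than in any control OL library, and its part in these values was not tested.

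On normalised CPM, Wipf1 was the gene whose OL groups did not overlap. It had 33.0, 33.2, 34.4 and 40.7 normalised CPM in control OL replicates 1 to 4 and 31.4, 27.2, 31.5 and 31.3 in the SRF-KO OL replicates. All 4 knockouts lay below the lowest control. Of all genes tested, 3.9% were separated on that side. The mean went from 35.3 ± 3.604 to 30.4 ± 2.10 CPM (SD over 4 libraries each). The log2 fold change was -0.22 (SE 0.13, 95% interval -0.50 to 0.05, edgeR adjusted p = 0.552). With library totals the groups overlapped (27.5 to 44.3 against 29.1 to 35.4 CPM) and the log2 fold change was -0.02. Wipf1 is also active in blood-derived cells, and the 10 microglial markers summed to 9.003 to 17.1 CPM in the control OL libraries, against 13.8 to 18.4 in the knockouts. In the OPC libraries they summed to 0 to 1.63 CPM, with Cx3cr1, Tmem119, Aif1, the C1q genes and Itgam at 0. The part of these markers in the Wipf1 level was not tested.

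Neither CYFIP gene passed the threshold in OLs, and both estimates turned sign with library totals, as given above. Cyfip2 had 182, 172, 154 and 164 CPM in control OLs and 166, 152, 141 and 117 in SRF-KO OLs, so 3 of 4 knockouts lay below all controls. The log2 fold change was -0.22 (95% interval -0.55 to 0.10, edgeR adjusted p = 0.627). Cyfip1 had 118, 99.8, 109 and 108 CPM in control OLs and 106, 115, 104 and 67.0 in SRF-KO OLs. Its log2 fold change was -0.15 (95% interval -0.52 to 0.23), and -0.03 without SRF-KO OL replicate 4, the low library.

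For the other complex members SRF-KO OL replicate 4 set much of the spread. It was the lowest of the 4 knockout libraries for 6 of the 10 genes. Nckap1 had 203, 157, 216 and 227 CPM in control OLs and 248, 257, 209 and 169 in SRF-KO OLs, a log2 fold change of 0.14 (95% interval -0.26 to 0.53), and 0.22 without replicate 4. Abi1 had 76.3, 89.0, 88.2 and 99.7 CPM in control OLs and 103, 117, 107 and 56.2 in SRF-KO OLs. Replicates 1 to 3 lay above every control and replicate 4 below every control. The Abi1 log2 fold change was 0.12 (95% interval -0.34 to 0.57), and 0.28 without replicate 4 (edgeR adjusted p = 0.168). Abi2 had 62.9 to 87.9 CPM in control OLs and 90.7, 100.1, 76.7 and 50.4 in SRF-KO OLs, a log2 fold change of 0.09 (95% interval -0.37 to 0.54), and 0.23 without replicate 4.

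The WAVE genes and Wasl overlapped between the OL groups on normalised CPM. Wasf1 had 63.1, 53.7, 60.5 and 49.3 CPM in control OLs and 57.9, 46.4, 45.9 and 55.1 in SRF-KO OLs, a log2 fold change of -0.14 (95% interval -0.45 to 0.17). Wasf2 had 36.1 to 39.6 CPM in control OLs and 37.8, 36.5, 36.0 and 53.8 in SRF-KO OLs. Its log2 fold change of 0.12 (95% interval -0.21 to 0.45) was -0.06 without replicate 4, the high library. Wasf3 had 24.0 to 27.7 CPM with the control virus against 24.8 to 28.9 with Cre, a log2 fold change of 0.07 (95% interval -0.19 to 0.33), and 0.01 without replicate 4. With library totals the Wasf3 groups did not overlap (21.8 to 26.6 against 26.9 to 29.97 CPM). Its log2 fold change was then 0.29 (edgeR adjusted p = 0.281), where the median of all genes was 0.24. Wasl had 42.5 to 55.9 CPM in control OLs and 56.7, 58.4, 41.8 and 41.1 in SRF-KO OLs. Its knockouts fell into 2 libraries above and 2 below all controls, and the log2 fold change was 0.02 (95% interval -0.33 to 0.37), and 0.08 without replicate 4.

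Whether the knockout effect differed between the stages was tested in 1 model over all 15 libraries. Virus and day of infection also differ between the stages, and so does the Srf left in knockouts (2.68% of control in OPCs, 36.7% in OLs). Reads were counted over spliced transcripts in OPC files and whole gene bodies in OL files. In this test these cannot be told apart from the stage of the cells. None of the 10 genes passed in edgeR (0.112% of 16135 genes did), 0 of 10 passed an unadjusted 0.05 (9.25% of genes did), and DESeq2 called 0 of 10 (1.13% of genes). The OL effect minus the OPC effect was 0.22 for Wasf1 (95% interval -0.15 to 0.59), 0.31 for Wasf2 (-0.12 to 0.73) and 0.40 for Wasf3 (-0.18 to 0.98). For Wasf1 the edgeR adjusted p was 0.756. Without SRF-KO OPC replicate 2 these differences were 0.12, 0.19 and 0.13, and without SRF-KO OL replicate 4 that of Wasf2 was 0.17. The lower Wasf1 level in SRF-KO OPCs was thus not shown to be particular to that stage. For the other 7 genes the difference ran from -0.22 for Wipf1 to 0.24 for Abi2. Without SRF-KO OPC replicate 2 it was 0.08 for Wipf1, 0.09 for Nckap1 (0.23 with it) and -0.03 for Cyfip1 (-0.12 with it). Without SRF-KO OL replicate 4 it was 0.26 for Wasl (0.17 with it), 0.35 for Nckap1, 0.03 for Cyfip1, -0.09 for Cyfip2 (-0.19 with it), 0.25 for Abi1 (0.06 with it) and 0.41 for Abi2.

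**Figure D2:**
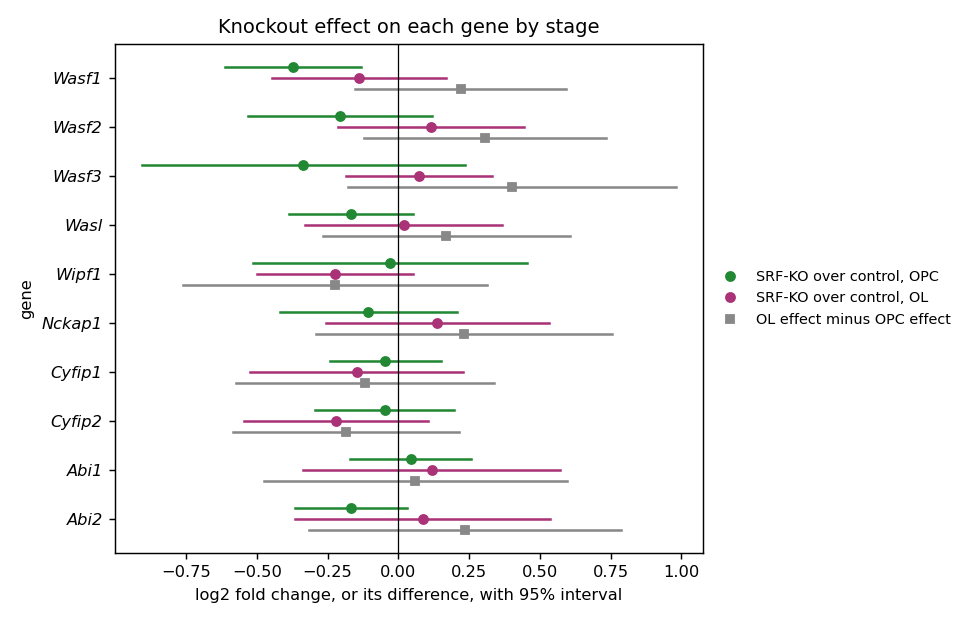
Log2 fold change of SRF-KO over control in OPCs (green) and OLs (purple), and the OL effect minus the OPC effect (grey squares), for each gene; lines are 95% intervals from the edgeR fits. The interval of Wasf1 in OPCs (-0.61 to -0.13) is the 1 that leaves out 0.

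Levels of different genes were compared per length, as normalised CPM per kilobase of spliced transcript. In control OPCs Nckap1 ranked highest with 81.3 ± 10.7 CPM per kb (SD, n = 4), followed by Abi2 (57.9 ± 4.93) and Cyfip1 (46.2 ± 2.77), each with a range above that of the next. Wasf1 (30.8), Abi1 (29.2), Cyfip2 (25.2) and Wasl (22.2 CPM per kb) came next, and each overlapped its neighbour in this order. Wasf2 (11.4) lay apart from those above and below it, and Wasf3 (3.18) and Wipf1 (2.86 CPM per kb) overlapped at the bottom. Effective lengths differ between libraries with the transcripts that the authors' software assigns, up to 1.86-fold for Wasf2 and 1.38-fold for Wasl among OPC libraries, so 1 median length per gene was used. In control OLs, on the same lengths, Nckap1 again ranked highest (47.6 ± 7.34 CPM per kb), and Abi1 (32.5), Cyfip2 (27.6), Cyfip1 (26.1) and Wasf1 (23.0) followed with overlapping neighbours. Wasl (15.9), Wasf2 (15.4) and Abi2 (14.7) overlapped each other in turn, and Wipf1 (7.88) and Wasf3 (5.11 CPM per kb) each lay apart.

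Because 1 complex takes 1 protein at each position, paralogs were also added up by position. The sums are RNA levels and do not give the amount of protein at a position. In control OPCs the 3 WAVE genes together had 45.5 ± 2.10 CPM per kb, below the CYFIP pair (71.4 ± 5.05), Nckap1 (81.3 ± 10.7) and the ABI pair (87.2 ± 6.99), with no overlap between the WAVE range (43.5 to 47.7) and the others. Brk1, the small subunit, had 203 ± 16.7 CPM per kb. In SRF-KO OPCs the WAVE sum was 36.4 ± 6.15 CPM per kb (29.4 to 40.7, n = 3), below every control library, while the sums for CYFIP (67.1 to 70.2), ABI (79.1 to 84.8) and Nckap1 (58.5 to 89.6) overlapped their controls. The WAVE sum holds Wasf1 as its largest part, so it repeats the Wasf1 result. In control OLs the sums were 43.5 for WAVE, 47.2 for ABI, 47.6 for Nckap1, 53.7 for CYFIP and 186 CPM per kb for Brk1. The OL files count whole gene bodies while these lengths are spliced, so OL values per kb can include reads from introns.

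**Figure D3:**
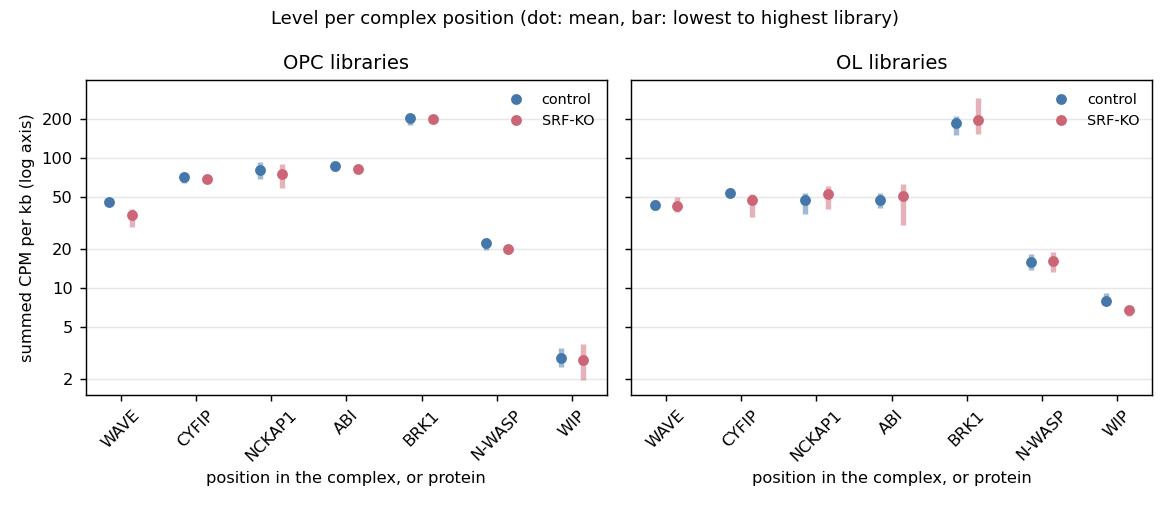
Summed CPM per kb (log axis) for each position of the WAVE complex and for N-WASP and WIP, in OPC (left) and OL libraries (right); dots are means and bars run from the lowest to the highest library. In OPC libraries the WAVE sum lies at 43.5 to 47.7 in controls and 29.4 to 40.7 in knockouts.

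Paralog use was measured as the share of one paralog in the summed level of its family, which does not depend on library scaling. Knockout moved no share past the spread between libraries in either stage. In OPCs Abi1 made up 33.6% ± 1.13 of the ABI pair in controls and 36.9% ± 3.05 in knockouts, Cyfip1 64.8% ± 2.37 and 64.6% ± 4.44 of the CYFIP pair, and Wasf1 67.9% ± 2.38 and 65.8% ± 1.41 of the WAVE genes (SD, n = 4 and 3). In OLs Abi1 made up 68.9% ± 2.59 and 69.2% ± 2.19, Cyfip1 48.6% ± 2.07 and 49.5% ± 3.30, and Wasf1 52.8% ± 2.54 and 48.7% ± 3.66 (SD, n = 4 each). The lowest p among these 10 knockout comparisons was that of the Abi1 share in OPCs (two-sided exact permutation p = 0.0571, 0.143 after Benjamini-Hochberg adjustment over 15 share comparisons). All 10 pairs of ranges overlapped.

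Between the stages the shares lay far apart on this scale. Abi1 held 32.4% to 34.9% of the pair in control OPCs and 66.9% to 72.7% in control OLs, and 34.1% to 40.2% and 67.8% to 72.5% in the knockout libraries of the same stages. Wasf1 held 65.4% to 70.4% of the WAVE sum in control OPCs and 50.5% to 55.4% in control OLs, with Wasf2 at 23.6% to 26.7% and 33.5% to 37.5%. Wasf3 held 6.02% to 8.74% and 10.9% to 12.4%. Cyfip1 held 61.7% to 67.0% of its pair in control OPCs and 45.8% to 50.8% in control OLs. Ranges of all 5 shares were separate between control OPCs and control OLs (two-sided exact permutation p = 0.0286 for each, the smallest that 4 against 4 libraries allow, and 0.0857 after adjustment). No stage comparison thus passed the adjusted threshold. With all 5 already at the smallest possible p, they could not pass by themselves over 15 share comparisons, however far apart the shares lay. The adjusted p therefore does not decide whether the shares differ between the stages.

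Stage, virus and counting method cannot be told apart in these shares. By their listed lengths OPC files hold counts over spliced transcripts, OL files over whole gene bodies, and OL cultures held the astrocyte RNA described above. The direction for Abi1, Wasf1 and Wasf2 was the same on raw expected counts and on the deposited TPM: Abi1 went from 21.2% to 54.1% of raw counts and from 33.9% to 63.9% of TPM. Raw counts are no separate check, because the shares above divide these same counts by a fixed length per gene. For a pair such as Abi1 and Abi2, the raw-count share must therefore rise or fall with the share above. For Wasf1 the means were 63.5% and 47.2% of raw counts and 68.2% and 16.2% of TPM, and for Wasf2 23.4% and 31.6%, and 24.8% and 79.2%. The TPM of an OL file divides by that file's effective lengths, which need not reach the whole gene span. Their OL medians were 54767 bases for Wasf1, 7470 for Wasf2, 88559 for Wasf3, 29496 for Cyfip1 and 118436 for Cyfip2. In the OPC files they were 2458, 2456, 4953, 4173 and 6079 in that order. TPM shares thus move with these lengths as well as with the counts, so they are no separate check of the stage difference either. The direction turned on TPM for Cyfip1 (64.5% to 72.3%) and Wasf3 (6.99% to 4.53%). These paralogs shared no exact sequence of read length: of all words of 63 bases (the read length) in the annotated transcripts, 0 were shared between any 2 of the 10 genes. Near matches, and the introns that OL files can count, were not examined. Cyfip1 shared 11.3% of its words with other genes, mainly the antisense neighbour Nipa2 (108 CPM in control OPCs, 73.2 in control OLs), Abi1 3.05% with the antisense Pdss1, Abi2 0.0554%, and the other 7 genes 0%. The libraries do not mark strand, so reads in the overlap of Cyfip1 with Nipa2 and of Abi1 with Pdss1 cannot be assigned with certainty.

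**Figure D4:**
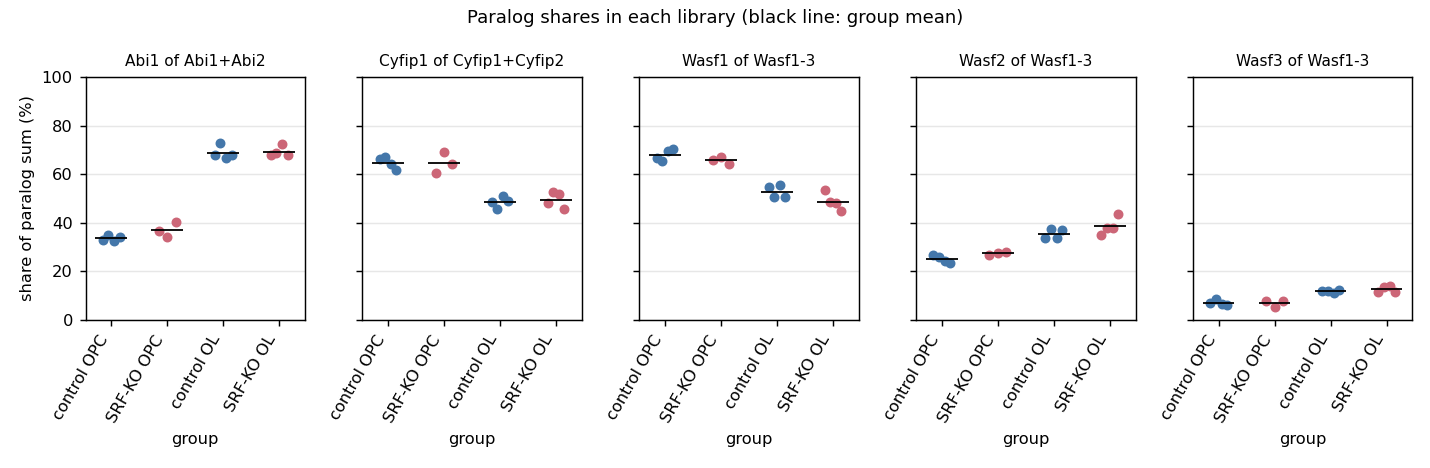
Share of each paralog in the summed level of its family (%, counts per 1 spliced length per gene) in every library, with control libraries in blue, SRF-KO libraries in red and group means as black lines. Abi1 lies at 32.4% to 40.2% in the OPC libraries and at 66.9% to 72.7% in the OL libraries, and control and knockout overlap within each stage.

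Neither the Arp2/3 subunits nor the other activators and partners gave a call in either stage. Of the 10 Arp2/3 subunits, 0 of 10 were called in edgeR in OPCs or OLs; 2 passed an unadjusted 0.05 in OPCs and 0 in OLs, with medians of -0.05 and -0.02. Over all genes tested, 11.9% in OPCs and 11.6% in OLs passed that unadjusted threshold. Arpc4, a core subunit, had the smallest p in OPCs (277 ± 8.22 against 238.5 ± 11.7 CPM, log2 fold change -0.21, edgeR adjusted p = 0.320), and Arpc1b in OLs (262 ± 46.4 against 198 ± 45.9 CPM, -0.40, edgeR adjusted p = 0.474). Among 16 other Arp2/3 activators and partners listed beside the WAVE and WASP genes, 11 were tested in OPCs and 13 in OLs. Of these 0 were called, and 0 and 2 passed an unadjusted 0.05. Brk1 had log2 fold changes of -0.01 and 0.06. The smallest p were those of Washc3, a subunit of the endosomal WASH complex, in OPCs (0.26, edgeR adjusted p = 0.523) and of Whamm, an activator at internal membranes, in OLs (0.39, edgeR adjusted p = 0.424). The blood-cell members Was, Nckap1l and Hcls1 had at most 0.78 CPM in any library and were not tested in either stage.

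Upstream GTPases and adaptors, such as Rac1 and Cdc42, gave 0 calls among 25 tested in OPCs and 26 in OLs, with 6 and 3 at an unadjusted 0.05 (11.9% and 11.6% of all genes) and medians of -0.04 and -0.07. Fnbp1, a membrane-bending adaptor that binds N-WASP, had the smallest p in OPCs (log2 fold change 0.37, edgeR adjusted p = 0.299). Fyn, a kinase that acts in myelination, had the smallest in OLs, with 405 ± 48.9 CPM in controls and 252 ± 72.6 in knockouts (-0.68, edgeR adjusted p = 0.269). Without SRF-KO OL replicate 4, Fyn (-0.51, edgeR adjusted p = 0.0354) and Arpc1b (-0.59, edgeR adjusted p = 0.0383) passed the threshold, and 636 of all genes did. None of the 10 activators did so even then. The 8 inhibitors and branch removers had 7 tested members and 0 calls in each stage, with 1 and 0 at an unadjusted 0.05 and medians of -0.03 and -0.01. Coro1c, a coronin that helps dismantle branches, had the smallest p in both (-0.21 and -0.26, edgeR adjusted p = 0.337 and 0.565). In the test of the difference between stages the 4 lists had 0 calls among 10, 13, 26 and 7 tested genes (0, 3, 2 and 0 at an unadjusted 0.05, against 9.25% of all genes), and the smallest p in each were those of Arpc1b (-0.45), Whamm (0.92), Fnbp1 (-0.53) and Arpin, an Arp2/3 inhibitor (0.29).

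Genes whose levels followed these most closely were found over the libraries of a stage. For Wasf1 in the 7 OPC libraries they were Rxrb, Nop9 and Insig1 (Pearson r of log2 CPM 0.992 to 0.993 over 13270 genes compared), and for Wipf1 in the 8 OL libraries Mast4, Fry and Plekha5 (r 0.921 to 0.935 over 15192 genes). These values are the highest of all genes compared, over few libraries that share groups and depth, and are given as a description.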

How the data were processed

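PolyA RNA of 7 OPC and 8 OL samples was made into Smart-seq2 libraries, which do not mark strand, and read as single reads of 63 bases, per the labels' protocols. Titles set the groups, since the treatment label of the SRF-KO OLs names the Cre lentivirus but ends in the word control. Per the submitters' processing notes, the authors used bcl2fastq, STAR and RSEM (versions not given in the sources used here) and name builds GRCm38 and Rnor_6.0. The deposited expected counts are RSEM's estimated reads per gene, and the deposited TPM values are those counts per effective length, per the file headers. Among 8995 genes with 1 annotated transcript and introns, the listed length equalled the spliced length in 89.8% in OPC files and the whole gene span in 90% in OL files, so the stages are not on the same measure. Symbols were found for 45143 of 45706 gene IDs, and coordinates are from GENCODE M21.

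After rounding, the counts went into edgeR 4.0.16 under R 4.3.3 (filterByExpr, TMM, quasi-likelihood F-test, Benjamini-Hochberg adjustment over all genes at 0.05), within each stage and, for the difference between stages, over all 15 libraries. The SE is the absolute log2 fold change over the square root of F, and 95% intervals use it with the t quantile of the fit. Log2 CPM used a prior count of 2. Shares used expected counts over 1 effective length per gene (median of the OPC files) and exact permutation tests. On simulated counts, 2-fold changes (log2 of 1) were recovered in 89% of cases in OPCs (13271 genes), 76% in OLs (15193) and 29% for the difference between stages (16135), and 20 of 209, 10 of 186 and 7 of 124 calls were false. The changes were planted only in a sample of genes above a floor on the mean count, so these rates do not cover low-count genes. The sizes planted were log2 of 1 and 2, and every estimate for the 10 genes was smaller than that. The real data also gave fewer calls (9, 45 and 18), which makes the adjusted threshold stricter. The rates therefore do not give the chance of calling changes as small as those estimated for the 10 genes. Alternatives were DESeq2 1.42.0, library totals, no filter, a replicate block and leaving out each library. All 10 genes and Srf are named, and from each pathway list the genes called or else the 1 with the smallest p. The genes, lists and tests were chosen with earlier results of these data known.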

Additional observations from a re-analysis of the deposited data

Results flagged for a closer look

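Of 48 groups of 4 libraries examined for a library far from the rest (11 genes and 5 shares in 3 groups each), 2 were picked out, and chance picks about 1 in 20. Wasf2 in SRF-KO OL replicate 4 had 53.8 normalised CPM, far above the other 3 SRF-KO OL libraries at 36.0 to 37.8. Wipf1 in SRF-KO OL replicate 2 had 27.2 normalised CPM, below the others at 31.3 to 31.5. The knockout effect on Srf itself differed between the stages by 3.68 on the log2 scale (edgeR adjusted p = 0.00465). Srf counts fell less in OL than in OPC libraries. Virus, day of infection and counting method also differ between the stages. The median effective length of Srf was 3850 bases in OPC files and 9252 in OL files. The part of these differences in the 3.68 was not tested.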

How the results depend on the processing

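None of the 10 genes was called in any of the 3 comparisons under any alternative run. Counts over all genes moved: from 9 in OPCs to 127 with DESeq2, 101 without the filter, 2 with the replicate block and 1 to 4 leaving out 1 library; from 45 in OLs to 299 with DESeq2, 74 with library totals, 129 without the filter, 5 with the replicate block and 7 to 636 leaving out 1 library; and from 18 for the difference between stages to 168, 88 (no filter), 0 (replicate block) and 4 to 134. In OLs, Srf had an edgeR adjusted p of 0.193 with the block and of 0.0724 to 0.104 without control OL replicate 1, 2 or 3 or SRF-KO OL replicate 1, 2 or 3, and the stage difference in Srf had 0.0866 with the block. Whether the replicate numbers pair the samples was not settled. Deviations of same-numbered libraries correlated at -0.02 to 0.05 in OPCs and -0.28 to 0.03 in OLs. In OPCs 4 of 7 libraries correlated best with their own number, though control OPC replicate 4 has no such partner, and in OLs 1 of 8 did. So few libraries cannot exclude a pairing.

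The following estimates changed sign. With the block Cyfip2 in OPCs was 0.027 and the Abi1 stage difference -0.015; with library totals Wasf1, Cyfip1 and Cyfip2 in OLs were 0.086, 0.076 and 0.0025, and the stage differences of Cyfip1 and Cyfip2 0.11 and 0.035. Leaving out 1 library gave, in OPCs, Wipf1 -0.30 to 0.17, Nckap1 -0.25 to 0.051, Cyfip1 -0.11 to 0.019, Cyfip2 -0.11 to 0.034 and Abi1 -0.018 to 0.084; in OLs, Wasf2 -0.059 to 0.17, Wasl -0.071 to 0.091 and Abi2 -0.045 to 0.23; and for the stage difference Wipf1 -0.43 to 0.079, Cyfip1 -0.21 to 0.032 and Abi1 -0.054 to 0.25. Shares, in percentage points of knockout minus control, were on deposited TPM 0.24 (Cyfip1 in OPCs), -0.88 (Cyfip1 in OLs) and -1.15 (Abi1 in OLs), and leaving out 1 library -2.43 to 2.00 (Cyfip1) and -0.58 to 0.76 (Wasf3) in OPCs and -0.072 to 2.28 (Cyfip1) and -0.74 to 1.61 (Abi1) in OLs. The stage difference on TPM was 7.81 for Cyfip1 and -2.46 for Wasf3. The cause of these turns was not tested.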
